A study of Mus musculus with 12 samples.

Results

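The transcripts described here are those of 10 genes of the OAS and IFIT families, out of the 55414 gene records counted in splenic CD4+ T cells of mice. The 10 were chosen by family name, with earlier results on their levels in these libraries known, so that counts of members are descriptions. Further genes of these families, such as Oas1b, Oas1c and Ifit1bl1, were not among them and are described under other observations. Oas1a, Oas1g, Oas2, Oas3, Oasl1 and Oasl2 make up 6 OAS genes, and Ifit1, Ifit2, Ifit3 and Ifit3b make up 4 IFIT genes. All 10 had records, with total counts over the 12 libraries between 23 (Oas1g) and 7786 (Oas3). The study compared mice with ligature-induced periodontitis (LIP) with controls (CTL). In male BALB/c mice of 18 weeks, a silk ligature had been left around the upper second molars for 14 days in the LIP group, and CTL mice were anesthetized without a ligature. CD4+ T cells were purified from the spleen by negative selection and were taken either at once (day 0) or after 2 days of culture with IL-2, plate-bound anti-TCRβ antibody and anti-CD28 antibody (day 2). The stimulation was given to both the CTL and the LIP cells of day 2. In the treatment labels, the last of these antibodies reads anti-CD29 for the day 2 libraries CTL 93 and LIP 96, and anti-CD30 for the day 2 libraries numbered 97. Each of the 4 groups held 3 libraries. They carry the numbers 88, 89 and 94 (CTL) and 92, 93 and 94 (LIP) on day 0, and 92, 93 and 97 (CTL) and 90, 96 and 97 (LIP) on day 2. The sources used here do not say whether a library came from 1 mouse or from pooled mice, so that the p-values measure the spread between these libraries, which may be technical.

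The authors deposited expected counts per gene, which were normalized here to counts per 1000000 (CPM) with edgeR's TMM factors. The libraries held between 6249018 and 7845676 counts on day 0 and between 8691699 and 12866718 on day 2. Where no read was counted, a floor of 3 counts was used, which equalled 0.233 to 0.480 CPM in these libraries. Such floors, and the intervals of pooled counts, reflect counting error alone. The level of Cd4 was 421 to 643 CPM, and the summed level of 5 T cell markers lay between 1670 and 2170 CPM in every library. LIP 90 of day 2 stood apart from its group. Its median absolute log2 difference over the 14041 genes tested on day 2 was 0.28 from both LIP 96 and LIP 97, whereas LIP 96 and 97 differed by 0.16. Where a call of the 10 genes changed without LIP 90, this is given beside it. In bulk RNA, fewer cells with a transcript and less of it per cell cannot be told apart.

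OAS proteins are sensors of double-stranded RNA. The active synthetases make short oligoadenylates, second messengers that lead to the breakdown of viral and cellular RNA. IFIT proteins bind RNA through tetratricopeptide repeats, and Ifit1 recognizes viral RNA whose cap lacks the methylation of host mRNA. Both families are known for their induction by type I interferon, through transcription factors that bind the interferon-stimulated response element (ISRE) of promoters.

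The genes lie in 3 clusters of the GRCm39 build. On chromosome 5, Oas2, Oas3, Oas1g and Oas1a lie on the minus strand between 120868398 and 121046449, and Oasl2 and Oasl1 on the plus strand between 115034997 and 115075974. On chromosome 19, Ifit2, Ifit3, Ifit3b and Ifit1 lie on the plus strand between 34527932 and 34632174. RefSeq promoter windows (GRCm38.p6) were found for 9 of the 10 genes, Oas2 being without one, and each matched GRCm39 exactly at 1 place. In the 250 bases before the start site, the core letters of the ISRE (GAAANNGAA, read on both strands) were found in 6 of these 9 genes, namely Oas1a, Oas1g, Oas3, Ifit1, Ifit3 and Ifit3b. Over all genes of the RefSeq table, the same letters occurred in 8.18% of 27025 genes, or in 7.13% of 32851 promoters. They were not found in the windows of Oasl1, Oasl2 or Ifit2. The letters of a gamma-activated site (TTCNNNGAA, the same on both strands) were found in Oas1a and Ifit2, and in 8.13% of all genes. Neither motif overlapped the other.

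Stretches of these promoters are shown because they carry the ISRE core letters of the genes whose levels are compared next. They run 5′ to 3′ on the strand of the gene, end at or before the RefSeq start site, and were kept clear of GENCODE exons, except that 22 of the 30 bases shown for Oas1a lie in an annotated exon. Capitals mark the matches to the ISRE core on either strand.
Oas1a, chr5:121045589-121045618: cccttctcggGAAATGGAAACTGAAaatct
Oas1g, chr5:121025677-121025714: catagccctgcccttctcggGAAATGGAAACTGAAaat
Oas3, chr5:120915730-120915819: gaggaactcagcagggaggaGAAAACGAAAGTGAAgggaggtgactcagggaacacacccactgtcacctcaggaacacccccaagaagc
Ifit1, chr19:34618160-34618270: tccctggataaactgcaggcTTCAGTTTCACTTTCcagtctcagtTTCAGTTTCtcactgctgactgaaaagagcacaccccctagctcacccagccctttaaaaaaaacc
Ifit3, chr19:34560754-34560898: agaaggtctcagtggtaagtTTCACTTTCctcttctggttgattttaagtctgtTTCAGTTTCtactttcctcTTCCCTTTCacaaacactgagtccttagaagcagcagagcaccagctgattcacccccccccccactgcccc
Ifit3b, chr19:34585150-34585327: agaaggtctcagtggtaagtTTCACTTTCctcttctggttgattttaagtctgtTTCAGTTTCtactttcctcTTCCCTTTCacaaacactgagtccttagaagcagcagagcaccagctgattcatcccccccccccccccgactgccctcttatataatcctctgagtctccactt

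The Oas1a and Oas1g stretches shared the same 2 overlapping matches close to the start site. The Oas3 matches overlapped in the same way, at positions -75 and -69 from the start site, where -1 is the base before it. The Ifit1 window held 3 matches, all on the opposite strand, of which the first 2 overlapped. Ifit3 and Ifit3b held the same 3 separate matches, which began at -155 in Ifit3 and at -187 in Ifit3b. For comparison, parts of windows without an ISRE core match are shown for Oasl1 (208 bases) and for the first of the 2 windows of Ifit2 (88 bases), whose day 2 values are contrasted with the others in what follows.
Oasl1, chr5:115061055-115061262: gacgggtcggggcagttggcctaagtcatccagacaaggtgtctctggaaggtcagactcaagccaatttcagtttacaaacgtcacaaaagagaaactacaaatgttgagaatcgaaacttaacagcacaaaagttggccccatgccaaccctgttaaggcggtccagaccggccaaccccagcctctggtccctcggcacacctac
Ifit2, chr19:34527844-34527931: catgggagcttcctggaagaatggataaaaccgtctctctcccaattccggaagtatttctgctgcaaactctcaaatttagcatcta

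A pair of genes in each family is nearly identical in sequence, which bears on how reads were divided between them. The canonical GENCODE transcripts of Oas1a and Oas1g were identical at 97.5% of 1860 aligned bases, and 31.2% of the 150-base windows of Oas1a also occurred in Oas1g. Those of Ifit3 and Ifit3b were identical at 97.5% of 2042 aligned bases, and 15.3% of the windows of Ifit3 occurred in Ifit3b. The separate values of Oas1a, Oas1g, Ifit3 and Ifit3b are therefore uncertain, and for LIP over CTL on day 2 the pairs are also given summed. On the opposite strand, Ifit1 overlaps Ifit1bl2, which held 66 counts in all, and Oas1a, Oas2 and Oasl1 overlap genes with at most 10 counts. The strand setting of the counting is not given in the sources used here.

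The freshly purified cells held transcripts of both families. Per kilobase of the canonical transcript, Ifit2, an RNA-binding IFIT protein, had the highest level of the 10 genes on day 0, at 13.6 ± 0.99 (CTL) and 12.8 ± 0.89 (LIP) CPM per kb (SD, 3 libraries each). Oas3, the largest synthetase and a sensor of long double-stranded RNA, came next with 4.46 ± 0.57 and 5.09 ± 0.82. Oas1a followed with 2.11 ± 0.68 and 3.34 ± 0.63 CPM per kb, and in the CTL group its spread reached Oas2. The levels of Oas2, Ifit3, Oasl1 and Ifit1 lay between 0.886 and 2.02 CPM per kb, and no neighbours among them differed by more than the larger of their SDs. Ifit3b was below them in the CTL group and within the spread of Oasl1 in the LIP group, and Oas1g and Oasl2 were at the limit of detection, with at most 3 counts in any library of day 0.

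On day 0, the question was whether the families differed between LIP and CTL cells before stimulation. After adjustment over all 14064 genes tested with edgeR's quasi-likelihood test, 0 of the 8 genes with enough counts passed an adjusted p of 0.05 in either direction, compared with 0.0569% (higher) and 0.37% (lower) of all genes. DESeq2 also called 0. Oas1g and Oasl2 had too few counts to be tested. The fitted log2 fold changes of LIP over CTL ran from -0.36 (Oasl1) to 0.93 (Ifit3b), positive for 6 genes and negative for 2, with a median of 0.43 where the median of all genes was 0.01.

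Oas1a was counted at 3.46, 3.12 and 5.51 CPM in CTL 88, 89 and 94, and at 7.42, 5.05 and 6.67 CPM in LIP 92, 93 and 94. The groups overlapped, since LIP 93 lay below CTL 94. Fitted by edgeR, the difference was 0.67 on the log2 scale with a standard error (SE) of 0.27, an unadjusted p of 0.0294 and an adjusted p of 0.303, the only unadjusted p under 0.05 among the 8 genes. Over all genes, 6.67% were higher at an unadjusted p under 0.05.

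Ifit3b was counted at 0.451, 0.841 and 1.31 CPM in CTL 88, 89 and 94, and at 1.92, 1.54 and 1.60 CPM in LIP 92, 93 and 94. It was the only gene of the 8 whose LIP libraries all lay above the CTL libraries, a pattern found in 9.27% of all genes, and its log2 fold change of 0.93 (SE 0.43) had an adjusted p of 0.363. Its entry into the test rested on the LIP libraries, since 0 of the 3 CTL libraries reached the minimum of the filter. The other 6 genes had adjusted p-values between 0.460 (Oas2) and 0.739 (Oasl1). LIP 93 was the lowest LIP library of day 0 for all tested members but Ifit2. For Ifit1, the LIP libraries 92, 93 and 94 held 12.6, 4.91 and 10.9 CPM, and CTL 88, 89 and 94 held 6.76, 6.49 and 8.53 CPM, so that the LIP group enclosed the CTL group. Among markers of other cells on day 0, the 4 NK markers summed to 2.04 to 5.907 CPM in CTL and 5.912 to 10.1 CPM in LIP libraries and the 8 pancreatic acinar markers to 0.120 to 0.656 and 0.687 to 22.5 CPM, both without overlap. The 8 myeloid markers (4.80 to 11.0 and 6.46 to 12.5 CPM) overlapped. The part of these cells in the day 0 values was not tested.

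**Figure D1:**
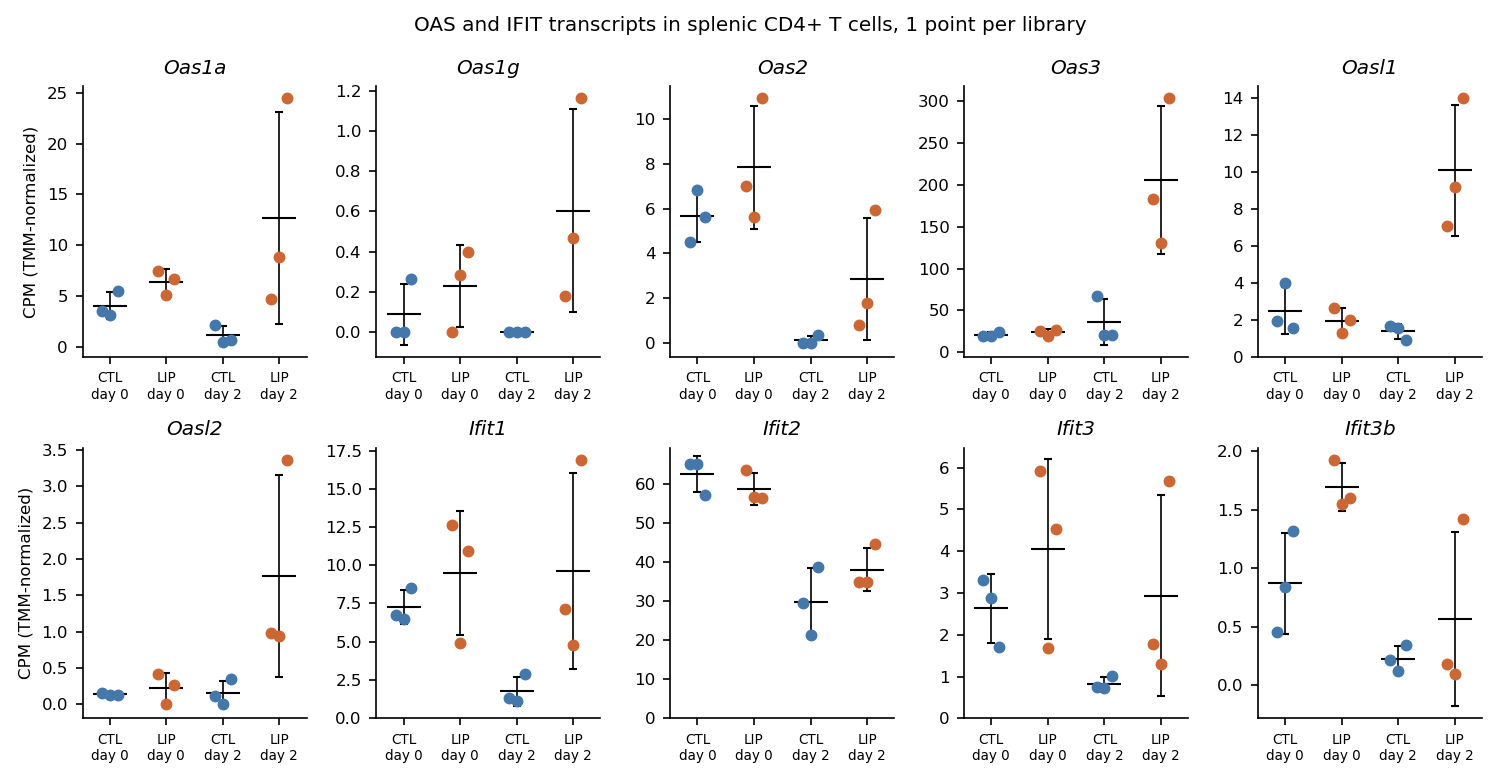
Normalized level (CPM, linear axis, a separate scale for each gene) of the 10 genes in the 12 libraries, with 1 point per library and the mean and SD of each group of 3. On day 2, the LIP points of Oas1a, Oas1g, Oas2, Oas3, Oasl1, Oasl2, Ifit1 and Ifit3 all lie above the CTL points, and those of Ifit2 and Ifit3b overlap them.

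After 2 days of stimulation, levels in the LIP group were several times those in the CTL group for most OAS genes and for Ifit1, while Ifit2 stood close to the CTL group. By the adjusted p of the test on the 6 libraries of day 2, 0 of the 6 genes tested were called, as were 0% of all 14041 genes, where the smallest adjusted p was 0.0568. At an unadjusted p under 0.05 with a log2 fold change over 1, Oas1a, Oas3, Oasl1, Ifit1 and Ifit3 were higher in the LIP group, 5 of the 6 tested, compared with 1.62% of all genes. Oas1a and Ifit3 entered the test mainly or only through the LIP libraries, and without them the count was 3 of 4. DESeq2 called 5 of the 10 genes higher at an adjusted p under 0.05 (2.15% of all genes it adjusted), namely Oas1a, Oas2, Oas3, Oasl1 and Ifit1. The same 5 were called when the day 2 difference was tested with all 12 libraries in 1 fit (2.88% of all genes). They were also called without LIP 90, when 7.74% of all genes were called higher and 6.19% lower. Oas2 reached the minimum of the filter in 0 CTL and 2 LIP libraries of day 2, so that its entry into that fit rested on the group where it was high. In the same fit, 1 of 5 T cell, 1 of 5 B cell and 1 of 2 CD8 markers were also called higher. So was 1 of 3 tested markers of plasmacytoid dendritic cells. The part of other cells in the members' calls was not tested.

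Oas1a had the greatest fitted difference of the 6 genes tested on the libraries of day 2. In CTL 92, 93 and 97 it was counted at 2.11, 0.477 and 0.680 CPM, from 20, 4 and 6 counts. In LIP 90, 96 and 97 it was counted at 4.65, 8.79 and 24.5 CPM, from 52, 94 and 189 counts. Every LIP library lay above every CTL library, and LIP 97 was more than 2 times the next. The fitted log2 fold change was 3.47 (SE 0.73, adjusted p 0.120), that is 11.1-fold. Without LIP 90 the value was 3.88, at an adjusted p of 0.00268. It was 4.39 without CTL 92 and 2.58 without LIP 97, the highest and lowest of the 6 fits without 1 library, and neither was called. Summed with Oas1g, the log2 fold change was 3.53 (SE 0.74). Oas1a passed the filter on low counts mainly through the LIP group, since only 1 CTL library reached the minimum.

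Oas3 contributed most of the OAS counts. It was counted at 67.3, 21.1 and 20.2 CPM in CTL 92, 93 and 97, and at 183, 130.5 and 304 CPM in LIP 90, 96 and 97. The groups did not overlap, although CTL 92 stood at about 3 times the other CTL libraries. LIP over CTL stood at 2.49 on the log2 scale (SE 0.50, adjusted p 0.118), or 5.63-fold, and at 3.31 when CTL 92 was left out, the highest of the 6 fits without 1 library. Without LIP 90, it was 2.59 with an adjusted p of 0.0100.

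Oasl1 encodes a family member without synthetase activity, which is known to restrain the translation of Irf7. Its levels were 1.69, 1.55 and 0.907 CPM in CTL 92, 93 and 97 and 7.07, 9.16 and 13.97 CPM in LIP 90, 96 and 97. All LIP libraries stood above the CTL libraries, and the spread within each group was less than 2-fold. This difference of 2.83 on the log2 scale (SE 0.36), or 7.12-fold, had the smallest adjusted p of the families, 0.0596. Without LIP 90 the value was 3.06, at an adjusted p of 0.000639.

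Oas2, a synthetase of intermediate size, was close to the limit of detection in the stimulated CTL cells. Its rounded counts were 0, 0 and 3 in CTL 92, 93 and 97, against 9, 19 and 46 in LIP 90, 96 and 97, that is 0, 0 and 0.340 CPM against 0.805, 1.78 and 5.95 CPM. With so few counts Oas2 was not tested in the fit of day 2 alone. The counts pooled over each group, per total count, stood at a ratio of 20.7 of LIP to CTL (exact 95% interval 6.82 to 102.8). In the fit of all 12 libraries, the log2 fold change on day 2 was 4.41 (SE 0.98, adjusted p 0.0229). With 1 library of day 2 left out, Oas2 was tested in 4 fits of that day, ran from 3.88 to 7.71 and was called in 1. All CTL counts of day 2 lay in CTL 97.

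Oasl2, an OAS-like protein with ubiquitin-like domains, and Oas1g were also too low to be tested on day 2. The counts of Oasl2 were 1, 0 and 3 for the CTL libraries 92, 93 and 97, against 11, 10 and 26 for LIP 90, 96 and 97, a pooled ratio of 9.88 (interval 3.61 to 37.7). Oas1g was at 0 throughout the CTL group and at 2, 5 and 9 counts for LIP 90, 96 and 97, at least 4.48-fold higher when set against a floor of 3 counts over the CTL group. The LIP libraries were above the CTL libraries for both genes. With no filter on low counts, Oasl2 was 3.42 higher on the log2 scale (adjusted p 0.00843) and joined the 5 genes above, so that 6 of 10 were called (1.59% of all genes), while Oas1g had an adjusted p of 0.0514.

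Of the IFIT genes, Ifit1 was counted at 1.27, 1.07 and 2.83 CPM in CTL 92, 93 and 97 and at 7.16, 4.77 and 16.9 CPM in LIP 90, 96 and 97. The groups did not overlap, and the fitted difference was 5.45-fold, or 2.45 on the log2 scale (SE 0.56, adjusted p 0.131). Without LIP 90 the value was 2.64, at an adjusted p of 0.0151, and without LIP 97 it was 1.77, at an adjusted p of 0.311. Ifit3 was counted at 0.738, 0.715 and 1.02 CPM in CTL 92, 93 and 97 and at 1.79, 1.31 and 5.69 CPM in LIP 90, 96 and 97. The groups again lay apart, but LIP 90 and 96 exceeded CTL 97 by less than 1 CPM, and 0 of the 3 CTL libraries reached the minimum of the filter. The log2 fold change was 1.76 (SE 0.61, unadjusted p 0.0193, adjusted p 0.218), 0.89 without LIP 97, and 2.04 without LIP 90, at an adjusted p of 0.0555. The unadjusted p was 0.0594 without CTL 92, 0.0584 without CTL 93 and 0.0716 without LIP 97, so that Ifit3 then left the 5 genes counted above.

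Ifit2 differed from the rest. Its levels of 29.5, 21.5 and 38.8 CPM in CTL 92, 93 and 97 and of 34.97, 34.9 and 44.6 CPM in LIP 90, 96 and 97 overlapped. The log2 fold change was 0.34 (SE 0.22), with an adjusted p of 0.467 and of 0.238 without LIP 90. Its day 2 counts ran from 180 to 391. Ifit3b also overlapped, at 2, 1 and 3 counts for the CTL libraries and 2, 1 and 11 for LIP 90, 96 and 97, with a pooled ratio of 1.96 (interval 0.708 to 6.23). Summed with Ifit3, its log2 fold change was 1.67 (SE 0.65, adjusted p 0.257).

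Among the genes tested, the LIP libraries lay above the CTL libraries without overlap for 5 of 6, or for 3 of 4 when Oas1a and Ifit3 were set aside, a pattern seen in 10.9% of all genes. LIP 97 was the highest of the 6 libraries for all 10 genes. Without LIP 97, the 6 tested genes had values from 0.21 (Ifit2) to 2.58 (Oas1a), and 0 were called. The fitted differences ran from 0.34 (Ifit2) to 3.47 (Oas1a), with a median of 2.47 over the 6 tested, where the median of all genes was -0.01.

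**Figure D2:**
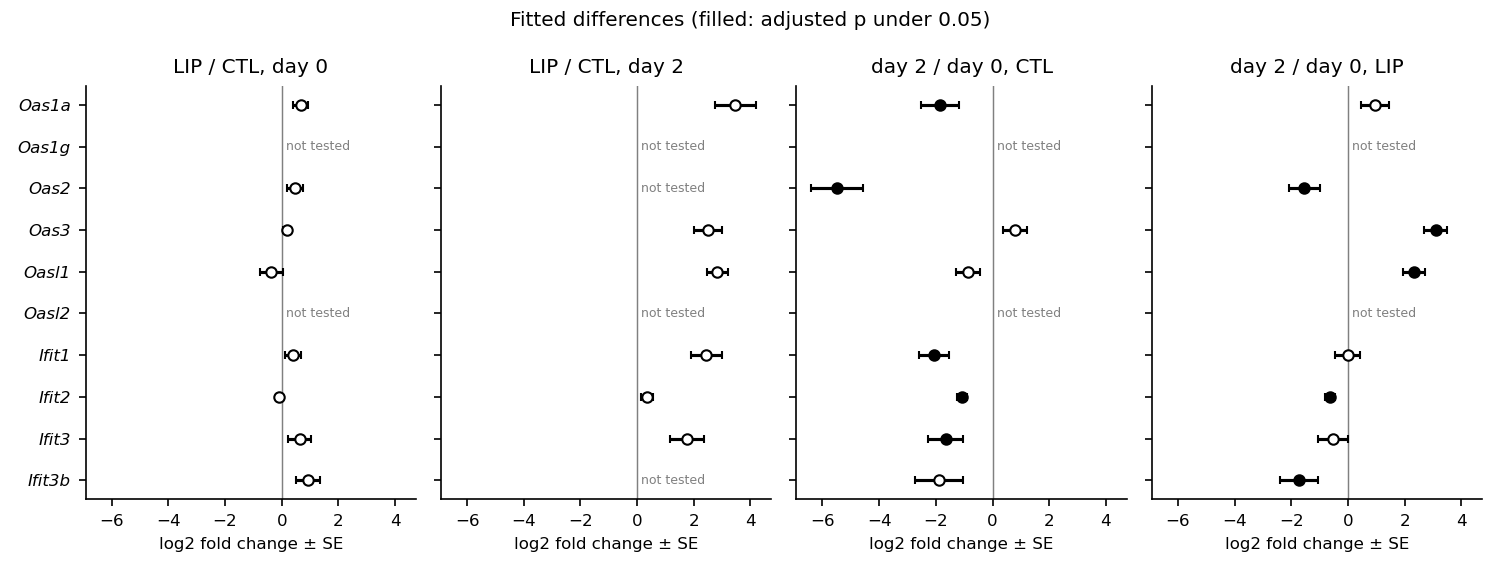
Fitted log2 fold changes of each gene with SE in 4 comparisons, LIP over CTL on each day and day 2 over day 0 in each group, with filled points where the adjusted p was under 0.05. On day 2 the LIP over CTL values run from 0.34 to 3.47 with all points open, and over time Oas3 and Oasl1 are filled above 0 in the LIP group (3.09 and 2.34).

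The comparison of day 2 with day 0 asked how the families moved with stimulation within each group. In CTL cells most of them fell. Of the 8 genes tested in the fit of all 12 libraries, 5 fell at an adjusted p under 0.05, where 33.7% of all 15475 genes did, and 0 rose, where 35.3% did. Oas2 fell by 5.49 on the log2 scale (SE 0.90, adjusted p 0.000106), a value that rests on 3 counts in the CTL libraries of day 2 and was -8.57 without CTL 97, which held them. Ifit1 fell by 2.07 (SE 0.52), Oas1a by 1.84 (SE 0.67), Ifit3 by 1.65 (SE 0.63) and Ifit2 by 1.064 (SE 0.17). Over the 12 fits without 1 library, Oas1a ran from -2.76 to -1.50, Ifit1 from -2.61 to -1.82 and Ifit3 from -1.85 to -1.45. Ifit3b (-1.90, adjusted p 0.0586) and Oasl1 (-0.86, adjusted p 0.0931) did not pass. Ifit3b was called lower when LIP 90, LIP 96 or LIP 97 of day 2 was left out (adjusted p 0.0469, 0.0400 and 0.0113), with a value of -1.89 to -1.90, and in none of the fits that left out another library. Among the fits that left out 1 CTL library, the fall of Ifit3 was called only without CTL 94 of day 0, and that of Oas1a was not called without CTL 94 of day 0 or without CTL 93 or CTL 97 of day 2 (adjusted p 0.0850 to 0.0972). Oas3 was the only gene with a positive value, 0.79 (SE 0.42, adjusted p 0.106), and this value was -0.02 when CTL 92 of day 2 was left out. Markers of other cells moved in both directions in the same comparison. The myeloid markers summed to 4.80 to 11.0 CPM on day 0 and to 0.834 to 1.13 CPM on day 2, with 3 of 3 tested called lower, and the NK markers to 2.04 to 5.91 and 0 to 0.454 CPM, with 2 of 2 called lower. The plasmacytoid dendritic cell markers summed to 62.5 to 76.4 and 13.5 to 20.2 CPM, with 2 of 2 called lower. These 2 were Ccr9 and Pacsin1, which held nearly all of that sum, while Siglech was at 0.394 CPM or less and Klk1 and Cox6a2 were at 0 on day 0. The pancreatic acinar markers summed to 0.120 to 0.656 CPM on day 0 and to 5.10 to 10.3 CPM on day 2. The 1 marker tested was called higher. Prss2 held nearly all of the day 2 sum, at 8.86, 10.0 and 5.10 CPM in CTL 92, 93 and 97. Cela2a, Cpa1, Ctrb1, Pnlip and Try4 were at 0 there. For the 5 B cell markers, of which 0 were called, the median was 0.87 on the log2 scale. The part of these cells in the members' values was not tested.

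In LIP cells, 2 OAS genes rose, and 1 OAS gene and 2 IFIT genes fell. Oas3 rose by 3.09 on the log2 scale (SE 0.42, adjusted p 1.75e-05), from 25.7, 19.7 and 26.8 CPM in LIP 92, 93 and 94 of day 0. Oasl1 rose by 2.34 (SE 0.38, adjusted p 9.92e-05), from 2.61, 1.26 and 2.00 CPM. Over all genes, 36.6% rose and 35.2% fell. Ifit2 fell by 0.63 (SE 0.17), Oas2 by 1.54 (SE 0.55) and Ifit3b by 1.73 (SE 0.67). The fall of Oas2 left its LIP libraries of day 2 overlapping those of day 0, and it was not called without LIP 94 of day 0, LIP 90 or LIP 96. The fall of Ifit3b was not called without any 1 of these or without LIP 92 or LIP 93 (adjusted p 0.0660 to 0.127). The values for Oas1a (0.95, adjusted p 0.104), Ifit1 (-0.01, adjusted p 0.982) and Ifit3 (-0.52, adjusted p 0.376) did not pass the test. Without LIP 90, Oas1a was called as well (1.36, adjusted p 0.00920), so that 3 of the 8 genes rose, where 35.6% of all genes did. Over the 12 fits without 1 library, Oas1a ran from 0.08 to 1.36. Ifit3 ran from -1.37 to -0.13 and was called lower in 1 of these fits. Oas2 ran from -2.59 to -1.07 and Ifit3b from -3.48 to -1.18. The same 3, 2 and 2 markers of myeloid, NK and plasmacytoid dendritic cells were called lower in the LIP group as well, and 2 of 5 B cell markers were called higher.

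Ifit2 thus fell in both groups, and Oas3 and Oasl1 rose in the LIP group. Per kilobase, Oas3 had the highest mean level of the 10 genes on day 2, at 7.66 ± 5.70 (CTL) and 43.6 ± 18.8 (LIP) CPM per kb, and in the CTL group this order rested on CTL 92. Ifit2 came second with 6.52 ± 1.89 and 8.32 ± 1.22, and in the CTL group it did not differ from Oas3 beyond the spread. In the LIP group Oas1a (6.61 ± 5.47 CPM per kb) and Oasl1 (4.55 ± 1.60) followed, and the spread of Oas1a covered both Ifit2 and Oasl1. Ifit3, Ifit1, Oas2, Oasl2, Oas1g and Ifit3b lay between 0.277 and 1.40 CPM per kb.

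The summed level of the 10 genes lay between 96.7 and 127 CPM in all 6 libraries of day 0. In the CTL libraries 92, 93 and 97 of day 2 it was 103, 46.5 and 65.4 CPM, and in LIP 90, 96 and 97 it was 241, 193 and 421 CPM. The LIP libraries of day 2 were thus above all others. Ifit2 made up 46.8% to 62% of the sum in every library of day 0 and 10.6% to 18.1% in the LIP libraries of day 2, where Oas3 made up 67.7% to 76.0%.

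**Figure D3:**
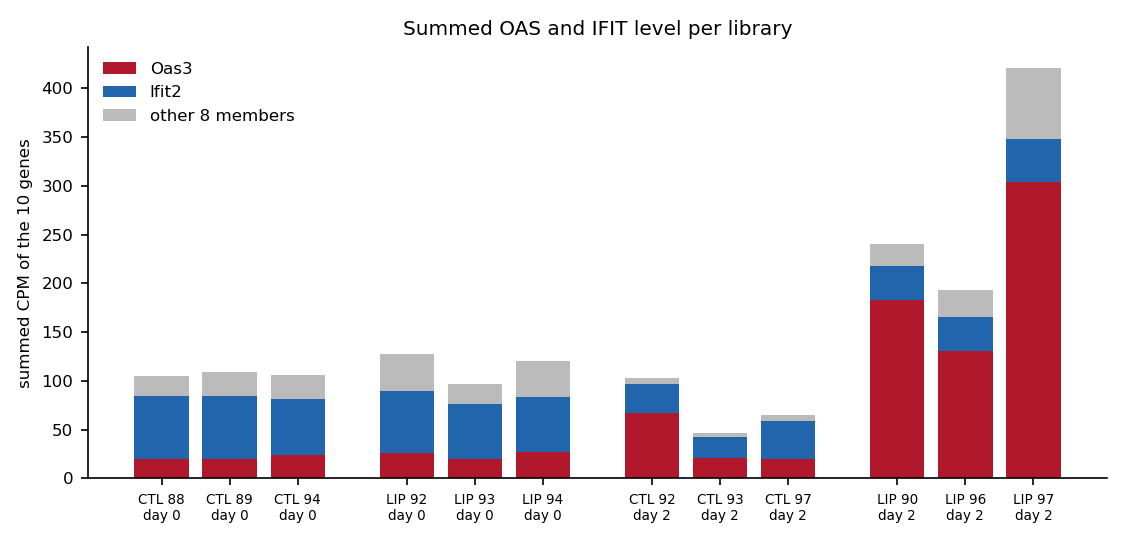
Summed level (CPM, linear axis from 0) of the 10 genes in each library, divided into Oas3, Ifit2 and the other 8 genes. The sums of LIP 90, 96 and 97 on day 2 (241, 193 and 421 CPM) are above all others, and Oas3 fills most of each of these bars.

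The interaction of group and day tested whether the LIP difference was larger on day 2 than on day 0. These fits share libraries with the comparisons above, so the values are not independent of them. For all 8 genes tested the interaction was positive, but 0 were called at an adjusted p under 0.05, where 0.0323% of all genes were called in this direction. At an unadjusted p under 0.05 the number was 5, where 8.65% of all genes were positive at this level. Oas2 had a log2 difference of 3.95 (SE 1.16, adjusted p 0.128), which ran from 2.89 without LIP 97 to 7.04 without CTL 97 of day 2, the library that held all 3 CTL counts, and Oasl1 one of 3.20 (SE 0.58, adjusted p 0.0740). Oas1a had 2.80 (SE 0.84, adjusted p 0.131), Oas3 2.30 (SE 0.58, adjusted p 0.100) and Ifit1 2.05 (SE 0.68, adjusted p 0.167). Over the 12 fits without 1 library, Oas1a ran from 1.92 to 3.72, Oas3 from 1.92 to 3.12 and Ifit1 from 1.40 to 2.61. Ifit3 (1.13), Ifit2 (0.43) and Ifit3b (0.17) had unadjusted p-values of 0.0990 or more. Without LIP 90, Oas1a, Oas2, Oas3 and Oasl1 were called (adjusted p from 0.00193 to 0.0222), when 5.64% of all genes were called in this direction, and DESeq2 called the same 4 with all libraries (3.02% of all genes).

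The members were compared over the 12 libraries by their log2(CPM + 1) values, after the mean of each day was subtracted, so that correlations describe differences between libraries within days. These values share library depth and normalization, and they are a description with no test. Oasl2 (r = 0.975), Oas1a (r = 0.9497), Oas2 (r = 0.933) and Ifit1 (r = 0.932) were most like the mean of the other members. Oas3 (0.870), Oasl1 (0.854), Oas1g (0.831) and Ifit3 (0.815) followed, and Ifit2 (0.663) and Ifit3b (0.603) were least like it. Outside the families and the lists described next, the 5 genes most like the mean of the members, of 11038 compared, were Daxx (r = 0.985), Phf11a (0.979), Hsh2d (0.977), Gm43197 (0.975) and Ifi206 (0.968). Only the day mean had been subtracted, so the difference between the groups stayed in the values by which these genes were chosen. Their log2 fold changes of LIP over CTL on day 2 were 1.04, 1.79, 1.59, 0.99 and 4.28, with adjusted p-values between 0.108 and 0.140. These follow in part from the choice and add no separate result.

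The rest of the interferon pathway was followed on day 2 through lists of ligands, receptors, transcription factors, sensors and targets. Of the 66 genes tested in these lists, 0 were called by edgeR's adjusted p, and 40 were higher and 2 lower at an unadjusted p under 0.05, where 8.33% of all genes were higher and 8.2% lower. Among 29 other interferon-induced genes, 25 were higher at this level, with a median log2 fold change of 1.35. Not all of the 29 reached the minimum of the filter in the CTL libraries. Rtp4 was at 0.949, 0.119 and 0.454 CPM in CTL 92, 93 and 97, and Cmpk2 at 2.00, 0.358 and 1.02 CPM. Their entry rested only or mainly on the LIP libraries, and the counts given here were not repeated without such genes. Rtp4 and Cmpk2 were named after their values were seen. At the same unadjusted p, 5 of 9 sensors were higher (median 1.03), 3 of 5 feedback genes (median 0.69), 4 of 10 receptors and signalling genes (median 0.22), and 1 of 7 interferon regulatory factors (median 0.09). Parp12, an interferon-induced antiviral protein, had a log2 fold change of 2.32 on day 2 (SE 0.28, adjusted p 0.0568) and was the only list gene called in the interaction (2.42, SE 0.31, adjusted p 0.0136). Without LIP 90, the interaction was called higher for 19 of 30 other interferon-induced genes, 5 of 10 receptors and signalling genes, 3 of 5 feedback genes, 2 of 9 sensors and 2 of 7 interferon regulatory factors, where 5.64% of all genes were. In LIP versus CTL on day 2 without LIP 90, 24 of 30 other interferon-induced genes were called higher, where 7.74% of all genes were.

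The genes named in this paragraph were chosen after their values were seen. Irf7, a transcription factor that amplifies interferon production, was counted at 23.3, 6.68 and 11.3 CPM in CTL 92, 93 and 97 and at 47.0, 72.3 and 149 CPM in LIP 90, 96 and 97. Its log2 fold change was 2.68 (SE 0.52, adjusted p 0.118), whereas the other 6 interferon regulatory factors had values between -0.61 and 0.32. For Stat2 and Irf9, which act together at the ISRE, the log2 fold changes were 1.26 (SE 0.24) and 0.81 (SE 0.25), with adjusted p-values of 0.108 and 0.191. Isg15, a ubiquitin-like modifier, had 3.79 (SE 0.46, adjusted p 0.0568), and Usp18, which removes it and restrains receptor signalling, had 2.94 (SE 0.42, adjusted p 0.0894).

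Transcripts of the ligands were scarce. The 14 interferon alpha and beta genes had 3 counts in all, 2 in the LIP and 1 in the CTL libraries of day 2, and Ifnb1 had 0 in every library, which allows up to 0.480 CPM in the shallowest. Ifng, the type II ligand that CD4+ T cells make, was the only ligand with enough counts. Ifnb1 and Ifng were named after their values were seen. Ifng was counted at 40.5, 28.8 and 16.1 CPM in CTL 92, 93 and 97 and at 21.3, 11.5 and 6.99 CPM in LIP 90, 96 and 97, with overlapping groups and a log2 fold change of -1.10 (SE 0.42, adjusted p 0.248). Without LIP 90 it was -1.59 (SE 0.37) and was called lower, at an adjusted p of 0.0209.

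**Figure D4:**
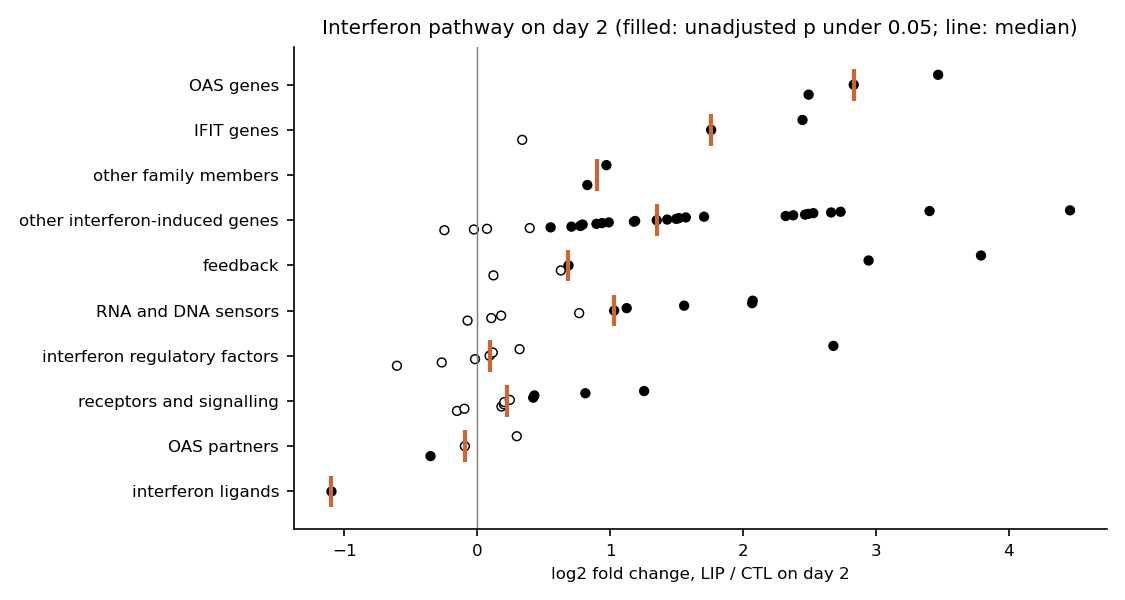
Log2 fold changes of LIP over CTL on day 2 for the tested genes of the 2 families and of 8 lists of the interferon pathway, with 1 point per gene, filled points for an unadjusted p under 0.05 and a line at each median. Points of the OAS genes and of the other interferon-induced genes (median 1.35) lie mostly to the right of 0, and the receptors and signalling genes lie near it (median 0.22).

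Markers of other cells were followed on day 2 beside these values. The summed level of 8 myeloid markers was 0.834 to 1.13 CPM in the CTL libraries and 1.34 to 3.49 CPM in the LIP libraries, without overlap, and all 8 had counts in both groups. The 5 markers of plasmacytoid dendritic cells, known as producers of type I interferon, summed to 13.5 to 20.2 CPM in the CTL and 10.4 to 21.9 CPM in the LIP libraries, with Klk1 at 0 in both groups and Siglech at 0 in the LIP group. Most of this sum came from Ccr9 and Pacsin1, whereas Cox6a2 was at 0.105, 0 and 0 CPM in CTL 92, 93 and 97 and at 0.0894, 4.67 and 1.81 CPM in LIP 90, 96 and 97. The 4 NK markers summed to 0 to 0.454 (CTL) and 0.0894 to 1.22 (LIP) CPM, with Klra8 at 0. The 5 B cell markers summed to 2.62 to 16.1 and 0.894 to 24.2 CPM, and the 2 CD8 markers to 4.42 to 6.32 and 4.92 to 13.2 CPM. LIP 90 held the lowest LIP value of both. In LIP 96 and 97 the B cell markers summed to 24.2 and 21.7 CPM and the CD8 markers to 13.2 and 9.19 CPM, above all CTL libraries, and without LIP 90 the median log2 fold changes of these lists were 1.61 and 1.27. Erythroid markers (4 genes, Hba-a1 at 0) lay between 0.738 and 1.91 CPM on day 2, and pancreatic acinar markers (8 genes) between 3.58 and 10.3 CPM. Both sums overlapped between the groups. Prss2 held most of the acinar sum, at 8.86, 10.0 and 5.10 CPM in CTL 92, 93 and 97. In LIP 90, 96 and 97 it was lower, at 3.22, 5.05 and 2.98 CPM, without overlap. The part of these cells in the day 2 differences was not tested.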

How the data were processed

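The 12 RNA libraries of CD4+ T cells from the spleen, 3 for each group and day, were assigned by sample title. Library numbers do not pair the groups. Per the study's methods, the 150-bp paired-end reads were trimmed with Trimmomatic and aligned with HISAT2 to GRCm39, and genes were counted with RSEM and Bowtie2. The submitters' processing notes give Trimmomatic 0.38 and RSEM 1.3.0. The authors deposited the expected counts without normalization, and the annotation release is not given in the sources used here. The tables of results that the authors deposited for each day hold log2 fold changes, p-values and a normalized signal per library, and were used only to find gene symbols. In these, 2 columns of per-library values match no labelled sample and were not used.

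The expected counts were rounded to whole numbers (73267 of the values were not whole) and tested with the quasi-likelihood test of edgeR 4.0.16 (R 4.3.3). Genes were filtered with filterByExpr, libraries were scaled by TMM, and p-values were adjusted by Benjamini-Hochberg over all genes tested. Each day was tested on its 6 libraries. The day effects and the interaction were tested on all 12. CPM used TMM factors of all 12 libraries, and lengths came from GENCODE release M39. Pooled count ratios have exact binomial intervals (95%). The test was checked on simulated counts with 200 changed genes. The alternatives tried were DESeq2 1.42.0, scaling by RLE or the upper quartile, no filter, at least 10 counts in every library, summed paralogs, another set of libraries in the fit and leaving out each library. Python 3.11.15 with pandas and biopython read the promoters, and matplotlib drew the figures.

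The 10 genes, the lists of pathway and marker genes and the tests were chosen with earlier results of these data known. The genes named in the text are the 10 members, the list genes called in LIP versus CTL or in the interaction, and the 5 genes outside the lists most like the members among those with a mean of at least 5 CPM. Other genes are said to have been chosen after their values were seen, or are named as markers. Some list genes are not reported here.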

Additional observations from a re-analysis of the deposited data

How the results depend on the processing

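On day 2, the number of the 10 genes called higher in the LIP group was 0 with edgeR on the 6 libraries, 5 with DESeq2 (2.15% of all genes), 5 with all 12 libraries in 1 fit and 6 with no filter on low counts (1.59%), and it ran from 0 to 5 when each library was left out, the 5 being reached only without LIP 90. For the interaction, 0 genes were called, against 4 with DESeq2 (3.02%), 5 with no filter (1.82%), and 0 to 4 without 1 library (1 without CTL 94 of day 0, 1 without CTL 92 of day 2, 4 without LIP 90 of day 2). The number that fell in the CTL group from day 0 to day 2 was 5, against 1 with at least 10 counts in every library (36%) and 3 to 6 without 1 library (3 without CTL 93 or CTL 97 of day 2), and the number that rose was 0, against 1 with no filter (21.5%) and 0 to 1 without 1 library (1 without CTL 93 or CTL 97 of day 2). In the LIP group 2 rose, against 1 with at least 10 counts in every library (36.3%), 4 with no filter (22.1%) and 2 to 3 without 1 library (3 without LIP 90), and 3 fell, against 1 with at least 10 counts in every library (36.9%) and 1 to 4 without 1 library (1 without LIP 94 of day 0, LIP 90 or LIP 96 of day 2). The minimum of 10 counts removed most members. The cause of the other shifts was not tested.

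Signs changed for some values, not all of them near 0. Oasl1 on day 0 went from -0.36 to 0.16 without CTL 89 (-0.62 to 0.16 over the libraries left out), and Oas3 over time in the CTL group from 0.79 to -0.021 without CTL 92 of day 2 (-0.021 to 1.08). The day effect of Ifit1 in the LIP group went from -0.01 to 0.045 with DESeq2, 0.0037 with RLE normalization and 0.036 with no filter, and ran from -0.66 to 0.33 without 1 library. The interaction of Ifit3b went from 0.17 to -0.24 without CTL 94 of day 0, -0.09 without CTL 93 of day 2 and -1.59 without LIP 97 of day 2 (-1.59 to 0.71). Of the other values of single genes, 508 kept their direction and side of the threshold, 43 passed it and 18 no longer did, and DESeq2 gave no adjusted p for 7.

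No paired analysis was possible because the groups of a day share only 1 library number. Depth limits Oas1g, Oasl2 and Ifit3b on both days and Oas2 in CTL cells of day 2.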

Other observations

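The genes in this paragraph were chosen after their values were seen. Ifit1bl1, an Ifit1-like gene next to the IFIT cluster members, was counted at 17.6 to 26.8 CPM in the 6 libraries of day 0 and fell in both groups (edgeR adjusted p 1.23e-07 in CTL and 2.64e-07 in LIP). On day 2 it was at 0.105, 0.238 and 0 CPM in CTL 92, 93 and 97, each below the floor of 3 counts, so no fold is given for that group, and at 0.179, 0.561 and 1.94 CPM in LIP 90, 96 and 97. Pde12, a phosphodiesterase that degrades oligoadenylates, rose by 0.71 on the log2 scale in the CTL group and by 0.52 in the LIP group (SE 0.11 in both). On day 2 its LIP libraries lay below the CTL libraries, with a log2 fold change of -0.35 (SE 0.13, unadjusted p 0.0227, adjusted p 0.229), and it was called lower without LIP 90 (-0.44, adjusted p 0.0268). The OAS-related genes Oas1b and Oas1c had log2 fold changes of LIP over CTL on day 2 of 0.83 (SE 0.25, adjusted p 0.179) and 0.97 (SE 0.25, adjusted p 0.1504), with the LIP libraries above the CTL libraries for both.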
